A study of Homo sapiens and Mus musculus with 36 samples.

Results

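Transcript levels of 38 genes of mitosis and the spindle checkpoint were followed through a study of the histone methyltransferase EZH2 and the sterol regulator SREBP2 in liver cancer and B-lymphoma cells. The genes were taken by symbol from all 13 tables of treated against control cells, in mouse letter case for the mouse line. All 38 were present in each of the 10 human tables, which together list 26868 genes. In the 3 mouse tables, which list 16699 genes, 37 were present, because KIF4A carries another symbol in the mouse (Kif4).

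Entry into mitosis is driven by CDK1 bound to cyclin A and then to the B-type cyclins, with PLK1 and the Aurora kinases building the spindle. The spindle checkpoint, run by BUB1, BUB1B, MAD2L1 and TTK, holds CDC20 inactive until every kinetochore is attached, and CDC20 then lets the anaphase-promoting complex destroy cyclin B and securin (PTTG1) and free separase (ESPL1). Most of these genes are transcribed in G2 and M phase, under the DREAM repressor complex early in the cycle and under MYBL2 and FOXM1 later, and their summed level is widely used as a mark of dividing cells in tumours, hepatocellular carcinoma among them.

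HepG2 and Huh7 are human liver cancer cell lines, and WEHI-231 is a mouse B-lymphoma line. The study sequenced RNA of 36 libraries, 2 in each of 18 groups. HepG2 cells received 5 uM of MS7126, C24, MS7126N1, MS7126N2 or DMSO for 48 h, and WEHI-231 cells 1 uM of MS8815, EPZ-6438, MS8815N or DMSO for 16 h. Huh7 cells received 5 uM of MS7126 or of DMSO for a time that is uncertain, since the Huh7 labels give 24 h and those of WEHI-231 give 48 h for the same cells. MS7126 and MS8815 are given as PROTACs against EZH2, molecules built to have their target protein degraded. C24 and EPZ-6438 are given as the inhibitors of EZH2's enzymatic domain that match them, and MS7126N1, MS7126N2 and MS8815N as analogs without PROTAC activity. The hairpin groups were cells infected with a pLKO.1-puro lentivirus and selected with puromycin, which the controls received too. HepG2 cells carried shEZH2, shSREBP2 #664, #665 or #667, or shControl, and Huh7 cells carried shEZH2 or shControl; one label calls the control virus an empty vector and another a scramble. Each hairpin group is a selected population of 1 line, and no label states that paired libraries were grown as independent cultures; p-values therefore reflect library spread alone, which may be technical.

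The DREAM complex and its activating counterparts reach many of these promoters through the cell cycle genes homology region (CHR), written TTTGAA or TTCGAA, which often lies a few helical turns from a CCAAT box, the site of NF-Y. Of the 38 genes, 34 had a promoter in the RefSeq table for GRCh38.p14. Either CHR spelling, on either strand, lay between 100 bases before and 50 after the start in 23 of the 34 genes (67.6%; 58.5% of their 41 windows, since some genes have several starts), against 7.37% of 35116 windows of all genes. CCAAT on either strand lay anywhere in the window in 25 of 34 (73.5%; 70.7% of windows), against 34.6% of all windows. Both were present in 17 of 34 (50%; 43.9% of windows), against 3% of all windows. TTCGAA reads the same on both strands, and a CHR string and a CCAAT string can share no more than an end base. The promoters of 6 members that hold a CHR string near the start are shown, since they carry the feature that most of these genes share. Each run covers 150 bases before the start and 30 from it on, at the upstream edge and first exon of its gene, 5′ to 3′ on the gene's own strand, with CHR and CCAAT letters of either strand in capitals. The positions on GRCh38.p14 are chr10:60778328-60778507 (+) for CDK1, chr15:59104996-59105175 (+) for CCNB2, chr16:23678739-23678918 (+) for PLK1, chr1:43358831-43359010 (+) for CDC20, chr5:138331775-138331954 (-) for CDC25C and chr2:110678034-110678213 (-) for BUB1.
CDK1: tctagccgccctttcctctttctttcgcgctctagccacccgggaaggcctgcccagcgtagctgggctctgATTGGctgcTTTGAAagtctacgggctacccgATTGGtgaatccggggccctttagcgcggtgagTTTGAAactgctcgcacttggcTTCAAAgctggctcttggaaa
CCNB2: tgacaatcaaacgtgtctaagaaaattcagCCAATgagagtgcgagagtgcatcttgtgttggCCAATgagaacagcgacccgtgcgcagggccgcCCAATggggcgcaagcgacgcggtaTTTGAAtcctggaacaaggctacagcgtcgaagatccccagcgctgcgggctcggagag
PLK1: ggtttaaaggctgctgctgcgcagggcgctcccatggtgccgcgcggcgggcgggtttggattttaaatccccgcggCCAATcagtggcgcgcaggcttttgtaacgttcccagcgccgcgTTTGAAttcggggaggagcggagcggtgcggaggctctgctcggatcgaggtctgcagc
CDC20: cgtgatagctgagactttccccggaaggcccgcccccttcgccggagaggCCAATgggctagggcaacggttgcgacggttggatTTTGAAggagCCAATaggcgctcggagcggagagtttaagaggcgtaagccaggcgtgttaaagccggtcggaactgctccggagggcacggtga
CDC25C: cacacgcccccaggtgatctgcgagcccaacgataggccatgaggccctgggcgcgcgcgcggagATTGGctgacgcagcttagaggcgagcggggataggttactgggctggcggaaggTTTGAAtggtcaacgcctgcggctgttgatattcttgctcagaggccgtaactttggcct
BUB1: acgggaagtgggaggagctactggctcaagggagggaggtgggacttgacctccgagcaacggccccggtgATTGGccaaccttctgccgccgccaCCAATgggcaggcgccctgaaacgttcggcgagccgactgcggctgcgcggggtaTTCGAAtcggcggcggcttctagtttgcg

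CDK1, the catalytic subunit of the mitotic kinase, held 3 CHR strings and 2 CCAAT boxes in this stretch. CCNB2, one of its cyclin partners, held 1 CHR string, 29 bases before the start, and 3 CCAAT boxes. PLK1 held 1 CHR string at the same distance, 29 bases before the start, and 1 CCAAT box. In CDC20 the CHR string lay 65 bases before the start, between 2 CCAAT boxes at 100 and 55 bases. CDC25C, the phosphatase that activates CDK1, held a CHR string 30 bases before the start and a CCAAT box at 85. BUB1 held the other spelling, from base 2 on when the start is counted as base 1. The windows of CCNB1, CCNA2, AURKB and TOP2A held no CHR string in that range, which says only that these letters are not in that stretch.

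Only the Huh7 shEZH2 table gave values per library, with totals between 10106193 and 11954322 estimated counts. The other 12 gave a mean normalized count per gene, a log2 fold change with its standard error (SE) and an adjusted p, and those values are the authors' own; a gene is called higher or lower at an adjusted p under 0.05. All 8 hepatocyte markers had a mean of at least 100 in every human table, and all 8 B-cell markers in every mouse table. Human tables listed at most 4 of the B-cell markers, which summed to at most 188 normalized counts, and the mouse tables listed 1 hepatocyte marker, Afp, at a mean of at most 5.14. EZH2 RNA was at 921 and 1000 normalized counts in the 2 Huh7 control libraries and at 148 and 156 with shEZH2. In HepG2, the libraries labelled shEZH2 had more EZH2 RNA than their controls, by a log2 fold change of 0.90 (SE 0.38) with an SE 2.04 log2 units above that of genes of like level in the authors' deposited table, which goes against the label. SREBF2, which encodes SREBP2, was lower with #664 (-1.58), #665 (-1.08) and #667 (-2.35, SE 0.42) in the authors' deposited tables. The SE of SREBF2 lay 1.91 log2 units above that of genes of like level with #667, and 2.64 above in the libraries labelled shEZH2, where SREBF2 was not called (0.43, SE 0.35).

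**Figure D1:**
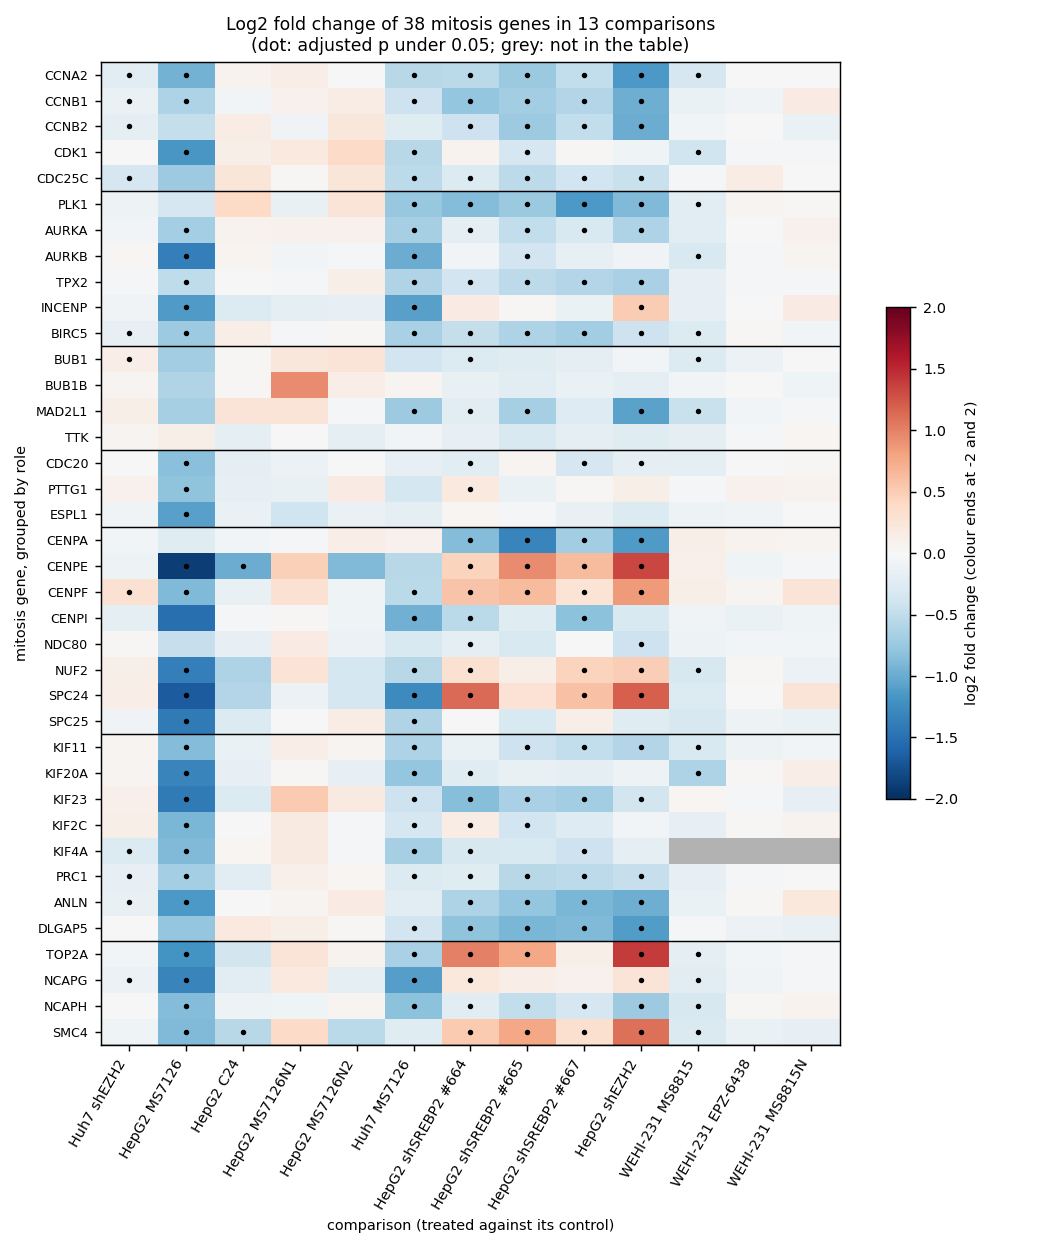
Log2 fold change of the 38 mitosis genes (rows, grouped by role) in the 13 comparisons (columns), treated against control. Blue is lower, red is higher, a dot marks an adjusted p under 0.05 and grey marks a gene not in the table; 27 of 38 genes carry a dot under MS7126 in HepG2 and all of them are blue, whereas the HepG2 hairpin columns hold both colours.

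With shEZH2 in Huh7, most of the mitosis genes were not called and the changes were small. By edgeR's quasi-likelihood test, 9 of the 38 were lower and 2 higher, against 19.3% of the 14581 genes tested that were lower and 19.5% that were higher. The members' share called lower, 23.7%, was therefore near that background. The median log2 fold change of the 38 was -0.04, and the extremes were -0.33 and 0.31. Of the 38, 26 had 2 libraries of one group wholly above the 2 of the other (68.4%), against 68.6% of all genes tested.

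Among the cyclins and CDK1, 4 of 5 were lower by edgeR, against 19.3% of all genes tested. In the authors' deposited table CCNA2 was the only one of them called lower. CCNA2, which partners CDK2 and then CDK1, was at 1990 and 1948 normalized counts in the controls and at 1695 and 1712 with shEZH2. Its groups did not overlap, and the log2 fold change was -0.21 (SE 0.036, edgeR adjusted p = 0.000217). CCNB1, the main mitotic cyclin, was at 2070 and 2086 against 1898 and 1905, again without overlap (-0.13, SE 0.034, edgeR adjusted p = 0.00739). CCNB2 was at 847 and 844 against 766 and 723 (-0.18, edgeR adjusted p = 0.0105). CDC25C was at 268 and 230 against 207 and 192 (-0.33, SE 0.10, edgeR adjusted p = 0.0178), the largest fall of the 38, and was not called without control replicate 1 (edgeR adjusted p = 0.195). CDK1 itself, at 1485 and 1642 against 1590 and 1545, had overlapping groups and a log2 fold change of 0.01 (edgeR adjusted p = 0.933) that turned negative without control replicate 1 (-0.07) or shEZH2 replicate 1 (-0.02).

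Of the kinases and the chromosomal passenger complex, which corrects faulty attachments, BIRC5 (survivin) was the one of 6 that fell. It was at 1509 in both control libraries and at 1383 and 1325 with shEZH2 (-0.16, edgeR adjusted p = 0.00579). The authors' deposited table did not call it (adjusted p = 0.0614). PLK1 was at 1675 and 1602 against 1546 and 1510 (-0.10, edgeR adjusted p = 0.0532), with shEZH2 below both controls but short of the threshold, which it passed without control replicate 2 (edgeR adjusted p = 0.0387). AURKB, at 1069 and 1001 against 1022 and 1092, had overlapping groups, and its value of 0.03 became -0.02 without control replicate 2 and -0.02 without shEZH2 replicate 2. AURKA, TPX2 and INCENP lay between -0.07 and -0.04 and were not called.

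In the spindle checkpoint, the kinase BUB1 rose from 1234 and 1248 to 1358 and 1356 (0.13, edgeR adjusted p = 0.0197). Leaving out any 1 of the 4 libraries raised that adjusted p to between 0.0515 and 0.101. MAD2L1 was at 1010 and 981 against 1094 and 1050, BUB1B at 952 and 900 against 949 and 986, and TTK at 586 and 590 against 635 and 594, and none of the 3 was called. CDC20, PTTG1 and ESPL1, the trigger of anaphase, lay between -0.07 and 0.08 and were not called; PTTG1 shares sequence with near-identical copies, so its counts are uncertain in every comparison.

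At the centromere and kinetochore, CENPF was the only one of 8 past the threshold. It rose from 1793 and 1884 to 2273 and 2283 normalized counts, with no overlap (0.31, SE 0.036, edgeR adjusted p = 4.39e-06), and it had the smallest adjusted p of the 38. CENPE, the kinesin that carries chromosomes to the spindle equator, was at 567 and 633 against 584 and 535, overlapping. CENPA was at 198 and 183 against 183 and 184, NDC80 at 473 and 484 against 489 and 480, and SPC25 at 416 and 456 against 394 and 437, also overlapping. In CENPI (264 and 263 against 237 and 224), NUF2 (245 and 229 against 264 and 252) and SPC24 (358 and 350 against 370 and 402) the groups stood apart but the genes were not called.

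Among motors and cytokinesis genes, KIF4A, PRC1 and ANLN fell, 3 of 8, against 19.3% of all genes tested. KIF4A, a chromosome-bound kinesin, went from 1275 and 1251 to 1026 and 1058 (-0.28, SE 0.044, edgeR adjusted p = 0.000103). Its partner PRC1, which bundles midzone microtubules, went from 2457 and 2528 to 2166 and 2262 (-0.17, edgeR adjusted p = 0.00107). ANLN (anillin), the scaffold of the contractile ring, went from 3023 and 3169 to 2847 and 2715 (-0.15, edgeR adjusted p = 0.00205). The other 5, KIF11, KIF20A, KIF23, KIF2C and DLGAP5, lay between -0.01 and 0.11.

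Of the condensation genes, NCAPG, a subunit of condensin I, fell from 3129 and 3114 to 2915 and 2839 (-0.12, edgeR adjusted p = 0.00562). TOP2A, the topoisomerase that untangles sister chromatids, was at 5660 and 5608 against 5478 and 5417 (-0.05, edgeR adjusted p = 0.13). SMC4 lay at -0.08 and NCAPH at -0.01. The authors' deposited table called 5 members lower (CCNA2, KIF4A, PRC1, ANLN and NCAPG) and 1 higher (CENPF), against 11.8% and 11.6% of its genes. Leaving out shEZH2 replicate 2 left 5 lower, since CCNB2, CDC25C, BIRC5 and NCAPG were no longer past the threshold.

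**Figure D2:**
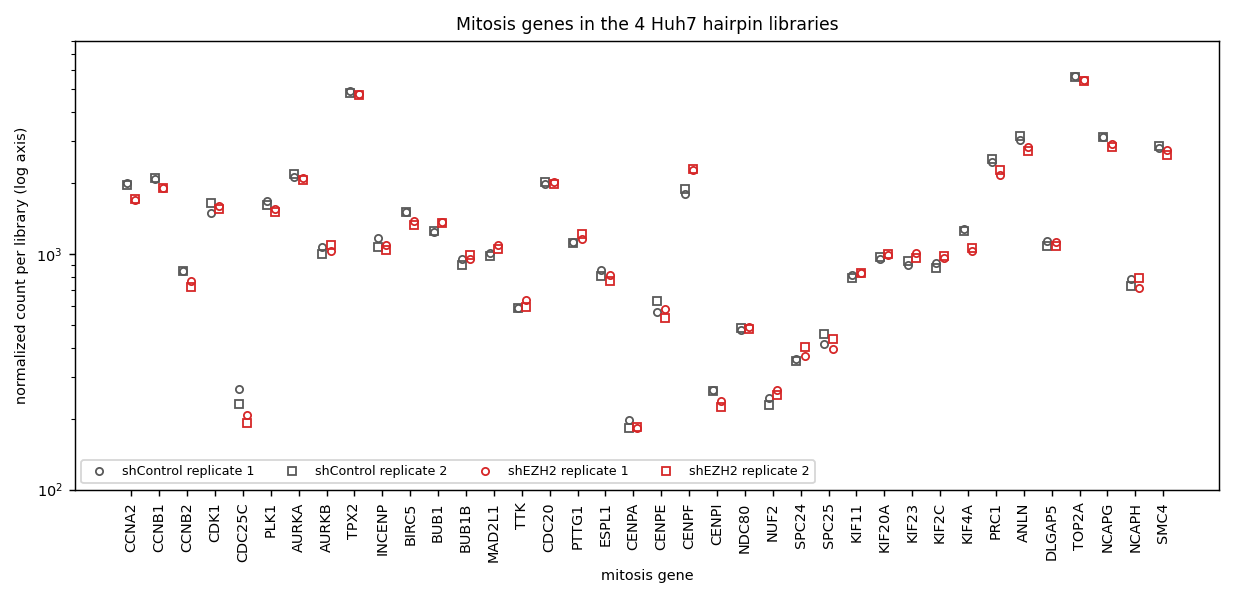
Normalized count (log axis) of each of the 38 mitosis genes in the 4 Huh7 hairpin libraries, grey for shControl and red for shEZH2, with circles for replicate 1 and squares for replicate 2. The red symbols of CCNA2, KIF4A and CDC25C sit below the grey ones and those of CENPF above them, and for most genes the symbols lie close together.

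Under MS7126 in HepG2 most of the mitosis genes fell. Of the 38, 27 were lower and 0 higher in the authors' deposited table, against 8.06% of all genes lower and 7.44% higher. At an unadjusted p under 0.05 the counts were 34 and 0. The share of all genes at an unadjusted p is not given, here or for later comparisons. The median log2 fold change of the 38 was -0.87, and TTK, at 0.12 (SE 0.52), was the only one above 0. The levels given are those of the 2 groups, rebuilt from the authors' deposited mean and fold change, because values per library were not used here. Hepatocyte markers were lower as well, 6 of 8, APOA1 (-1.87), FGB (-1.43) and ALB (-0.97) among them, in the authors' deposited table, and their part in the result was not tested. In bulk RNA, fewer cells in mitosis and less of a transcript per cell cannot be told apart.

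Of the centromere and kinetochore genes, 5 of 8 fell. CENPE went from 2575 to 693 normalized counts, or 26.9% of the DMSO level, in the authors' deposited table (-1.89, SE 0.19, adjusted p = 1.35e-20). It had the largest fall and the smallest adjusted p of the 38. SPC24, a subunit of the NDC80 complex that holds microtubules, went from 479 to 152 (31.7%; -1.66, SE 0.28, adjusted p = 1.03e-07) in the authors' deposited table. Its partner SPC25 went from 274 to 104 (-1.41), and NUF2, of the same complex, from 493 to 191 (-1.37, adjusted p = 4.83e-07), in the authors' deposited table. NDC80, which gives the complex its name, was not called, at 320 and 233 (-0.46, SE 0.27, adjusted p = 0.277) in the authors' deposited table. CENPF went from 3000 to 1634 (-0.88) there, whereas CENPA, the histone that marks centromeres, was at 205 and 173 (-0.24, adjusted p = 0.7). CENPI, with a level of only 58.9 under DMSO, had a value of -1.51 in the authors' deposited table but a wide interval (-2.88 to -0.14) and was not called.

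All 4 condensation genes fell in the authors' deposited table. TOP2A, the most abundant member, went from 17537 to 7641 (43.6%; -1.20, SE 0.16, adjusted p = 2.78e-12), NCAPG from 972 to 390 (-1.32, adjusted p = 9.39e-10), SMC4 from 4643 to 2505 (-0.89) and NCAPH from 460 to 254 (-0.86). Of the motors and cytokinesis genes, 7 of 8 fell, DLGAP5 being the exception (-0.77, adjusted p = 0.124). KIF23, a subunit of centralspindlin, went from 216 to 80.8 (-1.42, SE 0.35) and KIF20A, another kinesin of the midzone, from 982 to 395 (-1.32, adjusted p = 3.27e-06) in the authors' deposited table. ANLN went from 510 to 229 (-1.15) there, and KIF11, the motor that drives spindle poles apart, from 492 to 271 (-0.86).

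Among the kinases, 5 of 6 fell in the authors' deposited table. AURKB, the passenger kinase, went from 921 to 358 (38.9%; -1.36, SE 0.22, adjusted p = 5.02e-08), and its scaffold INCENP from 345 to 157 (-1.14). PLK1 was the exception, at 1284 and 1013 (-0.34, SE 0.22, adjusted p = 0.327) in the authors' deposited table. CDK1 went from 846 to 377 (44.5%; -1.17, SE 0.20, adjusted p = 4.03e-07), CCNA2 from 941 to 486 (-0.95) and CCNB1 from 1465 to 956 (-0.62, adjusted p = 0.0259) in the authors' deposited table. CCNB2 (-0.48) and CDC25C (-0.73) were not called there. All 3 anaphase genes fell, ESPL1 by 1.08, CDC20 by 0.83 and PTTG1 by 0.80 on the log2 scale in the authors' deposited table.

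In the checkpoint, 0 of 4 genes were called at an adjusted p, and 3 were lower at an unadjusted p under 0.05, in the authors' deposited table. BUB1 went from 469 to 290 (-0.69, SE 0.26, adjusted p = 0.0536), MAD2L1 from 415 to 262 (-0.66, adjusted p = 0.153) and BUB1B from 369 to 243 (-0.60, adjusted p = 0.0959) there. TTK was at 191 and 208. With a fold of at least 2 also required, 13 of the 27 were left.

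The inhibitor and the analogs, at the same dose and time in HepG2, moved few of these genes. With C24, 2 of 38 were lower and 0 higher in the authors' deposited table, against 4.01% and 3.01% of all genes, and at an unadjusted p 5 were lower and 1 higher. CENPE went from 2465 to 1231 (49.9%; 95% interval of the log2 fold change -1.32 to -0.68, adjusted p = 2.45e-07) and SMC4 from 4795 to 3260 (-0.56, SE 0.18, adjusted p = 0.0385) in the authors' deposited table. SMC4 was no longer called when p-values were adjusted over all genes that had one. CDK1 (0.11), AURKB (0.06), CCNB1 (-0.06) and PLK1 (0.40, adjusted p = 0.131) were not called with C24, and NUF2 was the nearest to the threshold (-0.62, adjusted p = 0.0641) in the authors' deposited table. TPX2 (0.00) and KIF2C (0.00) lay nearest no change.

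With MS7126N1 and with MS7126N2, 0 of 38 were lower and 0 higher in the authors' deposited tables, where 0.085% and 0.0744% (MS7126N1) and 0.341% and 0.362% (MS7126N2) of all genes were called. At an unadjusted p, 0 were lower and 3 higher with MS7126N1, and 1 lower and 0 higher with MS7126N2. BUB1B had the largest value with MS7126N1, from 275 to 532 (0.95, SE 0.24, adjusted p = 0.0524) in the authors' deposited table, and it passed when genes with a mean under 10 were left out before adjustment. The fold changes with MS7126N1 went down as the GC content of the transcript went up, with a Spearman rho of -0.72 over the 38 members and -0.44 over 8884 genes whose mean reached 100. With transcript length the rho over the members was 0.43 for MS7126N1 and -0.38 for MS7126N2, against 0.15 and -0.18 over all such genes. The part of GC content and length in these values was not tested. With MS7126N2, CENPE was at 2319 and 1254 (-0.89, SE 0.38, adjusted p = 0.705) in the authors' deposited table, with an SE 1.08 log2 units above that of genes of like level. CDK1 (0.39) and TOP2A (0.07) were not called there, and CDC20 (0.00) lay nearest no change.

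The 6 pairs of compounds were compared through the difference of their log2 fold changes, with p-values adjusted over all genes of all 6 pairs. MS7126 gave lower values than C24 for 9 of 38 members and higher for 0, against 2.16% of all genes lower and 1.43% higher. It gave lower values than MS7126N1 for 15 (1.56% of all genes, with 1.09% higher) and than MS7126N2 for 9 (0.931%, with 0.46% higher), and higher values for 0 in both pairs. The part of GC content and transcript length in the pairs with an analog was not tested. At an unadjusted p under 0.05, 31, 29 and 30 members were lower and 0 higher, and the shares of all genes at that threshold are not given. For CDK1 the difference was -1.27 (SE 0.26, adjusted p = 0.000283) from C24, -1.37 (SE 0.27, adjusted p = 0.00012) from MS7126N1 and -1.55 (SE 0.29, adjusted p = 1.68e-05) from MS7126N2. For AURKB it was -1.43 (adjusted p = 7.56e-05), -1.30 (adjusted p = 0.000663) and -1.32 (adjusted p = 0.000952). CENPE differed between MS7126 and C24 by -0.89 (SE 0.25, adjusted p = 0.0319) and between MS7126 and MS7126N1 by -2.38 (SE 0.37, adjusted p = 4.74e-08), but not past the threshold from MS7126N2 (-1.01, adjusted p = 0.467).

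Between C24 and MS7126N1, CENPE was the 1 member that differed (-1.48, SE 0.35, adjusted p = 0.00324), against 0.26% of all genes lower with C24 and 0.149% higher. Between C24 and MS7126N2, and between the 2 analogs, 0 of 38 passed by this normal test, against 0.128% and 0.306% of all genes in the former pair and 0.0997% and 0.0776% in the latter. At an unadjusted p under 0.05 the counts were 0 and 2. The median 95% interval of a member's difference reached 0.631 and 0.663 to each side in these pairs, before any adjustment. Smaller differences were therefore not detectable, and some larger ones were not called after adjustment. Between MS7126N1 and MS7126N2 these were CENPE (1.37, adjusted p = 0.211) and BUB1B (0.83, adjusted p = 0.48), among others. The 4 comparisons share their DMSO libraries, and the test leaves out the covariance that this brings. With a covariance term for them, MS7126 gave lower values for 23, 27 and 25 members against C24, MS7126N1 and MS7126N2, and C24 gave lower values than MS7126N1 for 6. With that term the 2 analogs differed in 2 members, both higher with MS7126N1, and C24 and MS7126N2 in 0. The term narrows the SE of every gene. The shares of all genes with it are not given, so these counts have no background here.

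In Huh7, MS7126 lowered 26 of the 38 and raised 0 in the authors' deposited table, against 16.3% of all genes lower and 17.5% higher. The counts at an unadjusted p were 27 and 0, with the share of all genes not given. The median of the 38 was -0.56. Of the 8 hepatocyte markers 7 were lower in Huh7 too, SERPINA1 (-1.05), APOA1 (-1.01) and ALB (-0.92) among them, in the authors' deposited table, and their part was not tested. All 6 kinases and passenger genes fell, INCENP from 2338 to 1095 (46.8%; -1.09, SE 0.20), AURKB from 2076 to 1045 (50.3%; -0.99, SE 0.17, adjusted p = 5.59e-08) and PLK1 from 3716 to 2191 (-0.76, SE 0.11, adjusted p = 4.32e-10) in the authors' deposited table. NCAPG had the smallest adjusted p, going from 6419 to 3001 (-1.10, SE 0.11, adjusted p = 2.94e-20), and SPC24 the largest fall, from 761 to 316 (-1.27, SE 0.29), in the authors' deposited table. CENPI fell by 0.96, NCAPH by 0.82 and KIF20A by 0.78 on the log2 scale there.

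CDK1 went from 2722 to 1851 (68%; -0.56, SE 0.13), CCNB1 from 5082 to 3815 (-0.41) and TOP2A from 11270 to 7159 (-0.65, adjusted p = 0.000154) in the authors' deposited table. TPX2, which brings AURKA to the spindle, went from 10350 to 6828 (-0.60, adjusted p = 4.09e-09) there. In the checkpoint MAD2L1 fell, from 2143 to 1290 (-0.73, SE 0.13, adjusted p = 6.71e-08), while TTK (-0.05), BUB1B (0.06) and BUB1 (-0.39, adjusted p = 0.0527) were not called in the authors' deposited table. Of the 3 anaphase genes 0 were called, and 0 passed at an unadjusted p, CDC20 lying at -0.17, ESPL1 at -0.18 and PTTG1 at -0.35 in the authors' deposited table. CENPE was at 996 and 675 (-0.56, SE 0.33, adjusted p = 0.187), with an SE 0.89 log2 units above that of genes of like level, and CENPA was at 0.09. The direction of this table rests on the study's description, since no second table shares its controls. Only 3 of the 26 falls reached 2-fold.

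The 2 lines share no libraries under MS7126. Of the members lower in HepG2, 21 of 27 (77.8%) were also lower in Huh7. They made up 80.8% of the 26 that were lower there among all 38. Since MS7126 lowered 26 of all 38 in Huh7, this overlap does not set the 27 apart. The share of all genes lower in both lines is not given. Across the 38 genes the log2 fold changes had a Pearson r of 0.55 and a Spearman rho of 0.45, given as a description because genes are not independent replicates. The difference between lines, Huh7 minus HepG2, passed for 2 members and was positive for both, against 2.65% of all genes positive and 3.06% negative. CENPE differed by 1.33 (SE 0.38, adjusted p = 0.0132) and ANLN by 0.93 (SE 0.28, adjusted p = 0.0222). Neither passed at an adjusted p of 0.01, and the labels leave it uncertain whether the hours of treatment differed between the lines; if they did, line and time cannot be told apart.

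**Figure D3:**
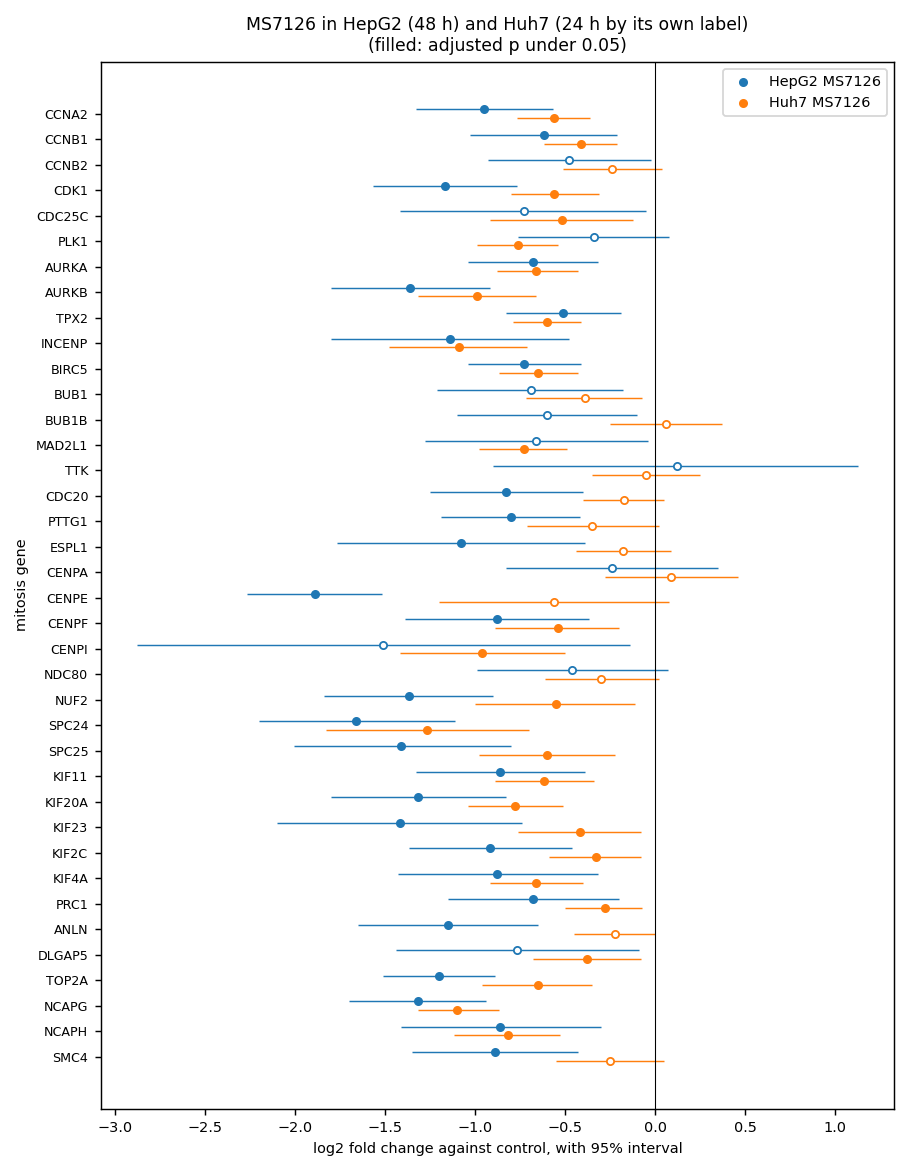
Log2 fold change with its 95% interval for each of the 38 mitosis genes under MS7126, blue for HepG2 and orange for Huh7; filled circles mark an adjusted p under 0.05. Most values lie left of 0 in both lines, the HepG2 values of CENPE (-1.89) and SPC24 (-1.66) furthest, and TTK lies at 0.12 and -0.05.

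Within Huh7, MS7126 and shEZH2 gave different values for 22 of the 38, all of them lower under MS7126, against 15.5% of all genes. This comparison used the authors' deposited values on both sides, with a median SE of the members of 0.0755 for shEZH2 and 0.15 for MS7126. The hairpin and the compound were set against different controls, shControl and DMSO, in separate libraries. Agent, control and length of exposure therefore cannot be told apart. The largest differences, shEZH2 minus MS7126, were those of SPC24 (1.39, SE 0.31), INCENP (1.03, SE 0.21), AURKB (1.02, SE 0.19) and NCAPG (0.98, SE 0.12, adjusted p = 7.15e-14). CENPF, higher with shEZH2 (0.31) and lower under MS7126 (-0.54) in the authors' deposited tables, differed by 0.85 (SE 0.19, adjusted p = 4.22e-05). Of the 9 members lower with shEZH2 by edgeR, all but CCNB2 and ANLN were lower under MS7126 as well. These 7 (77.8%) are 26.9% of the 26. Since MS7126 lowered 26 of all 38, this overlap does not set the 9 apart. Across the 38 genes the log2 fold changes of the pair had a Pearson r of 0.03 and a Spearman rho of 0.06. The share of all genes lower in both is not given.

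With each of the 3 hairpins against SREBP2 in HepG2, more of the mitosis genes were lower than higher. With #664, 21 of 38 were lower and 9 higher in the authors' deposited table, against 26.8% and 24.9% of all genes. With #665 the counts were 19 and 4 (20% and 18.7% of all genes), and with #667 they were 18 and 5 (19.3% and 18.6%). The share called higher was below that of all genes with each hairpin, so those genes are given as single values and not as a feature of the 38. The 3 comparisons share their control libraries, so each one's values are given side by side. Cyclins, PLK1, AURKA, TPX2 and BIRC5 were lower with each of the 3. The higher genes lay among kinetochore and condensation genes, with PTTG1 (0.19) and KIF2C (0.15) the exceptions, both with #664. All 14 members lower with each hairpin, and all 3 higher with each, were called the same way in the libraries labelled shEZH2. In those libraries 28.6% of all genes were lower and 28.4% higher. The share of all genes called the same way with each hairpin and there is not given. Those libraries share the shControl pair, and SREBF2 was not called there (0.43). The part of SREBP2 in this pattern was not tested.

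PLK1 had the largest fall with #664, from 4603 to 2531 (-0.86, SE 0.052, adjusted p = 2.15e-60), and with #667, from 3863 to 1743 (-1.15, SE 0.11, adjusted p = 7.84e-25), and was at -0.74 with #665 in the authors' deposited tables. CENPA, the centromeric histone, fell by 0.86, 1.32 and 0.69 on the log2 scale with #664, #665 and #667 in the authors' deposited tables. With #665, its level went from 1155 to 462, the largest fall of that hairpin. CCNB1 was at -0.77, -0.70 and -0.58 and CCNA2 at -0.54, -0.74 and -0.49 in the authors' deposited tables, all called. DLGAP5 (-0.80, -0.91 and -0.89), KIF23 (-0.85, -0.65 and -0.69) and ANLN (-0.61, -0.78 and -0.91) were the most lowered of the cytokinesis genes there. The kinase CDK1 was called with #665 (-0.33, adjusted p = 0.0045), and stood at 0.07 and 0.02, not called, with #664 and #667 in the authors' deposited tables. AURKB was called with #665 (-0.39) and not with the other hairpins, and its value of -0.06 with #664 became 0.00 when fold changes were centred on the median gene.

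On the other side, CENPE rose from 1622 to 2210 with #664 (0.45, SE 0.068), from 1364 to 2635 with #665 (0.95, SE 0.15) and from 1361 to 2115 with #667 (0.64, SE 0.13) in the authors' deposited tables. CENPF was higher by 0.57, 0.63 and 0.28, and SMC4, the ATPase core of condensin, by 0.53, 0.77 and 0.32 in the authors' deposited tables, all called. These 3 genes were among those that fell under MS7126 in the same line, by 1.89, 0.88 and 0.89 on the log2 scale. SPC24 rose most with #664, from 1099 to 2415 (1.14, SE 0.070, adjusted p = 5.33e-57), and was at 0.29 (adjusted p = 0.0851) and 0.58 with #665 and #667 in the authors' deposited tables. TOP2A went from 23495 to 47084 with #664 (1.00, SE 0.023) and from 19749 to 34016 with #665 (0.78, SE 0.12), but was not called with #667 (0.11, adjusted p = 0.374) in the authors' deposited tables. NUF2 rose with #664 (0.30) and #667 (0.45), and NCAPG with #664 (0.21).

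Tested as differences, with p-values adjusted over all genes of the 3 hairpin pairs, #664 and #665 differed in 7 members. SPC24 (0.85, SE 0.15, adjusted p = 2.48e-06), KIF2C (0.53), MAD2L1 (0.43), CDK1 (0.40, adjusted p = 0.00817), AURKB (0.33) and PTTG1 (0.32) had higher values with #664, and CENPE a lower one (-0.50, adjusted p = 0.0304); 6.23% of all genes were higher and 4.56% lower in that pair. Between #664 and #667, TOP2A (0.89, SE 0.10, adjusted p = 1.7e-16), SPC24 (0.55) and KIF2C (0.41) were higher with #664 and 0 members lower, against 4.85% and 4.07% of all genes; at an unadjusted p, 9 were higher and 0 lower. Between #665 and #667, TOP2A was higher (0.67, SE 0.16) and CENPA lower (-0.64, adjusted p = 0.035) with #665, against 2.94% and 3.5% of all genes. With a covariance term for the shared control libraries, the 3 pairs differed in 13, 7 and 9 members in place of 7, 3 and 2. The shares of all genes with that term are not given. The part of the unequal SREBF2 falls in these differences was not tested. Requiring a 2-fold change left 0, 1 and 1 of the lower genes and 2, 0 and 0 of the higher ones.

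**Figure D4:**
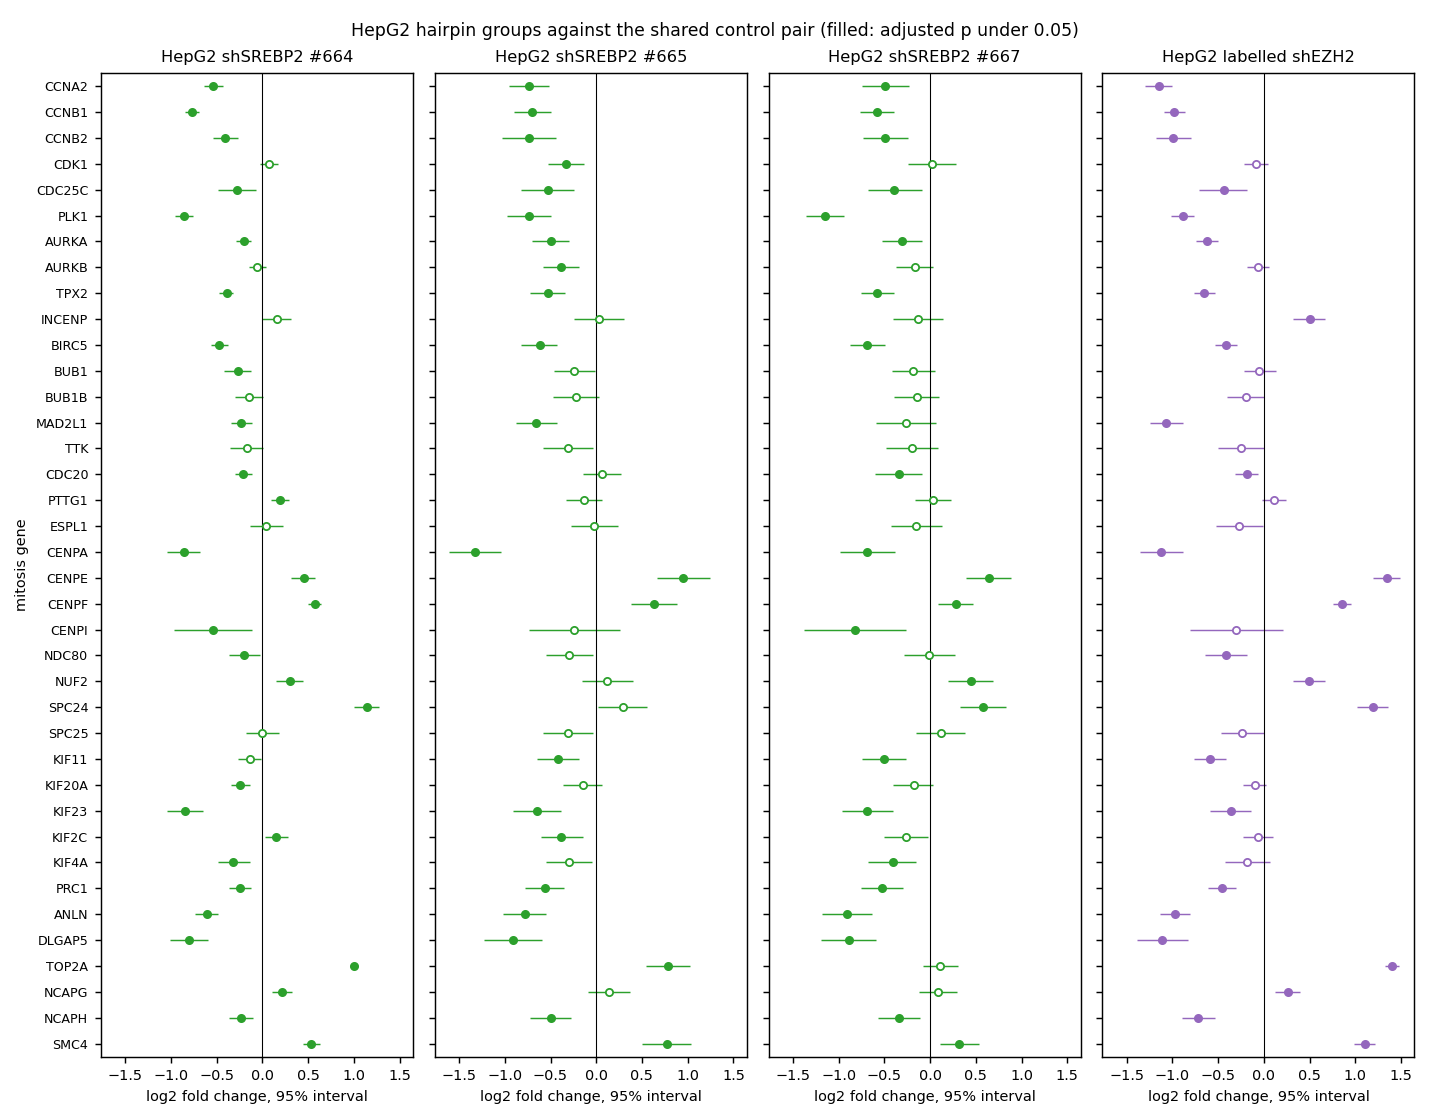
Log2 fold change with its 95% interval for the 38 mitosis genes in 4 HepG2 hairpin groups against the same shControl pair; filled circles mark an adjusted p under 0.05. PLK1, CENPA and ANLN lie left of 0 in each panel and CENPE, CENPF and SMC4 right of it.

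In the HepG2 libraries labelled shEZH2, whose EZH2 RNA goes against that label, 18 of 38 were lower and 8 higher in the authors' deposited table, against 28.6% and 28.4% of all genes. CCNA2 fell from 2763 to 1245 (45.1%; -1.15, SE 0.077), CENPA from 1026 to 470 (-1.13), DLGAP5 from 760 to 351 (-1.11) and MAD2L1 from 1955 to 933 (-1.07, adjusted p = 3.56e-30) there. CCNB1 was lower as well (-0.98, adjusted p = 1.4e-62), as was PLK1 (-0.89), in the authors' deposited table. TOP2A rose from 17534 to 46285 (264% of control; 1.40, SE 0.040, adjusted p = 4.21e-268), CENPE from 1211 to 3069 (1.34, SE 0.076), SPC24 from 820 to 1866 (1.19) and SMC4 from 3785 to 8120 (1.10) in the authors' deposited table. CENPF (0.85), INCENP (0.50), NUF2 (0.49) and NCAPG (0.26) were the other 4 called higher. CDK1 (-0.09) and AURKB (-0.07) were not called, and became 0.01 and 0.03 when centred on the median gene, which moved this comparison by -0.10.

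The same label in the 2 lines went with different values for 24 members, higher in Huh7 for 17 and lower for 7, against 30.3% and 21.2% of all genes. The widest gaps, Huh7 minus HepG2, were those of MAD2L1 (1.17, SE 0.12), DLGAP5 (1.10), CENPA (1.07) and CCNA2 (0.94) on one side and of TOP2A (-1.45, SE 0.05), CENPE (-1.44, SE 0.13), SMC4 (-1.18) and SPC24 (-1.06) on the other. Because EZH2 RNA was lower in the one line and higher in the other, line and change in EZH2 cannot be told apart here.

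In WEHI-231 cells, MS8815 lowered 14 of 37 members and raised 0 in the authors' deposited table, against 11.8% of all genes lower and 5.34% higher. The counts at an unadjusted p were 19 and 0, with the share of all genes not given. The median of the 37 was -0.18. Mad2l1 went from 4540 to 3347 (73.7%; -0.44, SE 0.068, adjusted p = 5.45e-09), the smallest adjusted p, and Kif20a from 775 to 507 (65.5%; -0.61, SE 0.18, adjusted p = 0.00508), the largest fall, in the authors' deposited table. Cdk1 went from 2352 to 1785 (-0.40, SE 0.089, adjusted p = 0.000152), Ccna2 from 4567 to 3631 (-0.33), Kif11 from 5296 to 4279 (-0.31, adjusted p = 2.27e-05) and Aurkb from 2429 to 1980 (-0.30) there. All 4 condensation genes fell, Ncaph by 0.32, Smc4 by 0.29, Ncapg by 0.23 and Top2a by 0.19 on the log2 scale in the authors' deposited table.

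Nuf2 (-0.32), Bub1 (-0.28), Birc5 (-0.27) and Plk1 (-0.23) were the remaining genes called lower with MS8815 in the authors' deposited table. Ccnb1, at 2852 and 2580 (-0.14, SE 0.076, adjusted p = 0.208), and Cenpe, at 2508 and 2685 (0.10, adjusted p = 0.524), were not called, and Pttg1 (-0.02) lay nearest no change, followed by Cdc25c (-0.04), Dlgap5 (-0.04) and Kif23 (0.04), in the authors' deposited table. The mouse gene listed as Kif4 was at -0.21 (SE 0.11, adjusted p = 0.185) there. With fold changes centred on the median gene, 9 rather than 14 were lower, and none of the 14 reached 2-fold.

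With EPZ-6438 and with MS8815N, 0 of 37 members were lower and 0 higher in the authors' deposited tables, where 0.122% and 0.122% (EPZ-6438) and 0.0689% and 0.0501% (MS8815N) of all genes were called. At an unadjusted p, 1 was lower and 0 higher with EPZ-6438, and 1 lower and 1 higher with MS8815N. Cdk1 was at -0.03 and -0.03, Aurkb at -0.02 and 0.05, Plk1 at 0.06 and 0.02, Ccnb1 at -0.07 and 0.16, Cenpe at -0.09 and -0.02 and Top2a at -0.06 and -0.02 in the authors' deposited tables. Over the 3 pairs, MS8815 differed from EPZ-6438 in Mad2l1 (-0.38, SE 0.09, adjusted p = 0.00636) and Ccna2 (-0.34, SE 0.09, adjusted p = 0.0131), and from MS8815N in Mad2l1 (-0.41, SE 0.10, adjusted p = 0.00477). No member was higher in either pair, also at an unadjusted p, and the shares of all genes lower and higher were 1.91% and 0.739% against EPZ-6438 and 1.37% and 0.495% against MS8815N. Kif20a differed by -0.64 (adjusted p = 0.207) and -0.76 (adjusted p = 0.0589), short of the threshold. EPZ-6438 and MS8815N differed in 0 of 37 by this normal test, against 0.0383% and 0.0255% of all genes, and in 1 at an unadjusted p, with a median 95% interval of 0.274 to each side. With a covariance term for the shared DMSO libraries, MS8815 differed from them in 10 and 11 members. The shares of all genes with that term are not given.

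**Figure D5:**
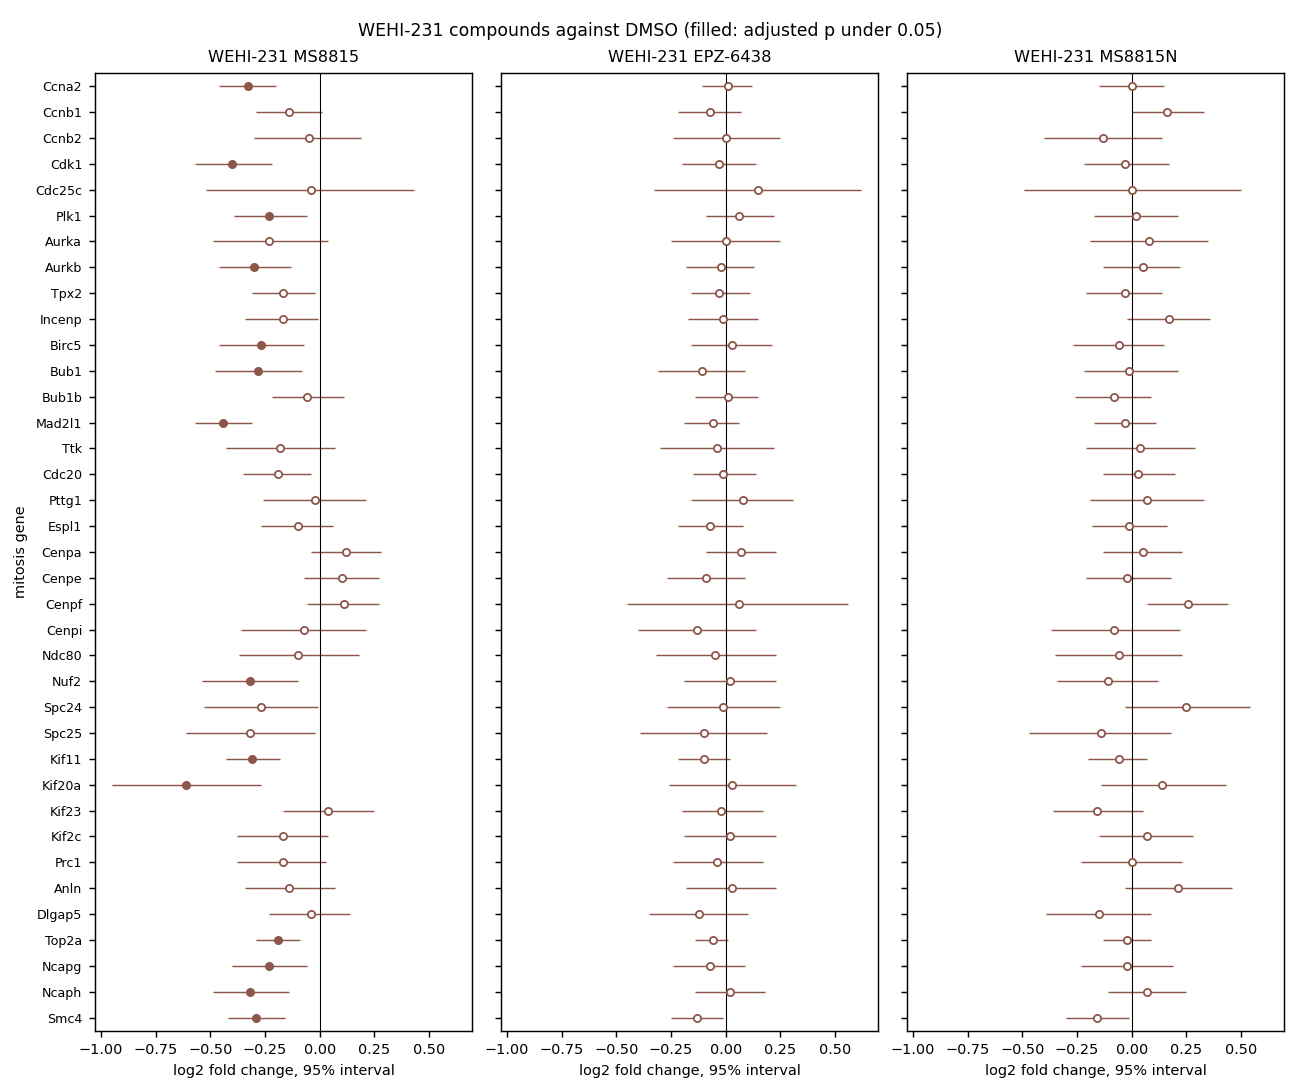
Log2 fold change with its 95% interval for 37 mitosis genes in WEHI-231 cells with MS8815, EPZ-6438 or MS8815N against the same DMSO pair; filled circles mark an adjusted p under 0.05. Filled circles appear with MS8815 alone, where Kif20a (-0.61) and Mad2l1 (-0.44) lie furthest left, and no test of a difference follows from the panels themselves.

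Across lines, 10 members were lower under MS7126 in HepG2, under MS7126 in Huh7 and under MS8815 in WEHI-231, which share no libraries: CCNA2, CDK1, AURKB, BIRC5, NUF2, KIF11, KIF20A, NCAPG, NCAPH and TOP2A. Of the 14 called with MS8815, 11 (78.6%) were lower under MS7126 in HepG2, or 40.7% of the 27 there, and 12 (85.7%) in Huh7, or 46.2% of the 26. Since MS7126 lowered 27 and 26 of all 38 in these lines, the overlaps do not set the 14 apart. Over 37 members, the log2 fold changes with MS8815 and under MS7126 in HepG2 had a Pearson r of 0.13 and a Spearman rho of 0.21. For MS8815 and MS7126 in Huh7 these were 0.42 and 0.48. The share of all genes lower in all of these comparisons at once is not given. Of the members with a CHR string near the start, 14 of 23 were lower under MS7126 in HepG2 and 14 of 23 in Huh7. Of those with a promoter in the table but no such string near the start, 10 of 11 and 9 of 11 were lower, a difference that was not tested. With #664, #665 and #667, 13, 11 and 11 of the 23 were lower, and 5, 5 and 4 of the 11. In the HepG2 libraries labelled shEZH2 these were 12 of 23 and 3 of 11, and with shEZH2 in Huh7, by edgeR, 6 of 23 and 2 of 11. With C24 they were 1 of 23 and 1 of 11, and with either HepG2 analog 0. The order thus differed between comparisons, which was not tested either.

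Other genes of the pathway were read from lists of their own. Of 49 further mitosis genes, 24 were lower and 0 higher under MS7126 in HepG2 (median -0.86), 31 lower and 2 higher in Huh7 (median -0.51), and 10 of 47 lower and 1 higher with MS8815 (median -0.20) in the authors' deposited tables. Of all genes, 8.06% were lower and 7.44% higher in the first, 16.3% and 17.5% in the second, and 11.8% and 5.34% in the third. The lists that follow have the same background, with 19.3% lower and 19.5% higher for shEZH2 in Huh7 by edgeR. UBE2C, the ubiquitin-conjugating enzyme of the anaphase-promoting complex, fell under MS7126 in HepG2 (-1.42, SE 0.21), as did the centromere gene CENPM (-1.86) and the kinesin KIFC1 (-1.31) in the authors' deposited table. CENPM was also lower with the analog MS7126N2 (-1.08, SE 0.28, adjusted p = 0.0203), the 1 gene of the list called there, in the authors' deposited table. CENPM was also among the most lowered in Huh7 (-1.83, adjusted p = 2.1e-12), where ECT2, which starts furrowing (0.92), and ZWILCH, of the checkpoint's RZZ complex (0.67), rose in the authors' deposited table. Zwint rose with MS8815 (0.63, SE 0.09, adjusted p = 5.34e-11), whereas ZWINT fell under MS7126 in Huh7 (-0.89), in the authors' deposited tables. With the hairpins, 26 were lower and 10 higher with #664 (26.8% and 24.9% of all genes), 28 and 9 with #665 (20% and 18.7%) and 19 and 7 with #667 (19.3% and 18.6%), so here too the share called higher did not exceed that of all genes. KIF20B (1.03, 1.03 and 0.97) and SMC2, the partner of SMC4 (1.13, 1.05 and 0.74), rose with #664, #665 and #667 in the authors' deposited tables.

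Of 14 regulators of the late program, 5 were lower under MS7126 in HepG2 and 0 higher in the authors' deposited table: FOXM1 (-0.87), MYBL2 (-0.75), RBBP4 (-0.57), TFDP1 (-1.04) and RBL2 (-1.03). In Huh7, FOXM1 (-0.71), MYBL2 (-0.60), RBBP4 (-0.73) and TFDP1 (-1.49, SE 0.13, adjusted p = 2.42e-29) were lower and NFYB higher (0.50) under MS7126 in the authors' deposited table. With shEZH2 in Huh7, by edgeR, FOXM1 (-0.21) and MYBL2 (-0.36) were lower and RBBP4 (0.31), TFDP1 (0.13), RBL2 (0.21), NFYA (0.19), NFYB (0.38) and NFYC (0.18) higher. With MS8815, Mybl2 (-0.27), Rbbp4 (-0.31), E2f4 (-0.29), Tfdp1 (-0.33) and Rbl1 (-0.34) were lower in the authors' deposited table. MYBL2 was lower with #664 (-0.44), #665 (-0.54) and #667 (-0.64) and in the libraries labelled shEZH2 (-0.46), and FOXM1 with each of them (-0.37, -0.45, -0.82 and -0.41), in the authors' deposited tables.

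The subunits of the anaphase-promoting complex, which act in mitosis but are not transcribed with it, were called in 0 of 15 under MS7126 in HepG2, where 2 were lower at an unadjusted p under 0.05, in the authors' deposited table. In Huh7 6 were lower under MS7126 (16.3% of all genes), and 4 with MS8815 in WEHI-231 (11.8%), in the authors' deposited tables. With shEZH2 in Huh7, 7 of 15 were lower by edgeR, against 19.3% of all genes, ANAPC7 most (-0.64, SE 0.05, adjusted p = 1.31e-08). Cohesin, which holds sister chromatids together, had 2 of 10 genes lower and 0 higher under MS7126 in HepG2. In Huh7 1 was lower and 4 were higher, and with MS8815 6 were lower and 0 higher, in the authors' deposited tables. Of all genes, 8.06%, 16.3% and 11.8% were lower in these 3 and 7.44%, 17.5% and 5.34% higher. The smaller of these counts lie near that background. SMC3, a cohesin ATPase, rose with #664 (0.94), #665 (1.15) and #667 (1.05) in the authors' deposited tables. Genes of the G1/S transition and replication were lower in 18 of 33 under MS7126 in HepG2, in 32 of 33 in Huh7 and in 23 of 33 with MS8815, and higher in 0 each time, in the authors' deposited tables. PCNA, the polymerase clamp, stood at -0.99, -1.37 and -0.63 in these 3. The p21 gene CDKN1A, an inhibitor of cyclin-dependent kinases, rose under MS7126 in HepG2 (1.21, SE 0.17) and in Huh7 (1.09, SE 0.34) in the authors' deposited tables, and rose with shEZH2 in Huh7 by edgeR (1.02, SE 0.11, adjusted p = 1.16e-06). It was lower with #664 (-0.57), #665 (-0.68) and #667 (-0.85) in the authors' deposited tables. Other genes for such inhibitors went both ways under MS7126. CDKN2C fell in HepG2 (-1.17, SE 0.33) and in Huh7 (-2.74, SE 0.22) in the authors' deposited tables. In Huh7, CDKN1B also fell (-0.54, SE 0.12) and CDKN2B rose (2.35, SE 0.18). The part of these genes in the values of the mitosis genes was not tested.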

How the data were processed

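Of the 13 tables, 12 hold the authors' own comparison. Per the file headers, which follow DESeq2's layout, each gene has a mean normalized count (a signal), the log2 fold change against control, its SE, a test statistic (a score) and its p-value, raw and adjusted. For Huh7 shEZH2, estimated counts per library were deposited beside these values. STAR 2.4.2, Salmon, GRCh38 and mm10 are named per the submitters' processing notes; further settings: not given in the sources used here. An adjusted p that a table leaves empty stayed empty.

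Estimated counts were rounded and passed to the quasi-likelihood test of edgeR 4.0.16 (TMM, R 4.3.3), without a block. Of 15228 rows, 20 hold dates in place of symbols and were left out, and 14581 genes passed the filter on low counts. The SE, which edgeR does not give, was taken as the log2 fold change divided by the square root of F. Fold changes of 2 comparisons were compared by a normal test on their difference over the root of the summed squared SEs, with Benjamini-Hochberg adjustment over all genes of all pairs of a family. Group levels were rebuilt from the deposited mean and fold change. The direction of each table was checked against tables with the same controls, except for Huh7 MS7126. Both kinds of test were first tested on simulated data. DESeq2 1.42.0 was an alternative. Other alternatives covered normalization, filters, thresholds, centring, leaving out each Huh7 library and the covariance of shared controls; a Kif4 row for KIF4A was chosen after seeing the data.

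CHR and CCAAT letters were searched in RefSeq promoters (GRCh38.p14), and transcript length and GC content come from GENCODE 29. Named by rule in each comparison were CCNB1, CDK1, PLK1, AURKB, CENPE and TOP2A, up to 6 called members with the largest change each way, up to 6 with the smallest adjusted p, called members against the majority and up to 3 nearest no change. For differences the rule took up to 4 each way. From other lists it took the targeted genes, the regulators and up to 4 called genes with the smallest adjusted p. Further members, ECT2, ZWILCH, CDKN1B, CDKN2B, CDKN2C and values of a listed gene in further comparisons were chosen after their values were seen. The members and lists were chosen with earlier results of these data known. The 2 libraries of a Huh7 group differed by more than counting error alone (chi-square per degree of freedom 1.51 and 1.36), and their numbers did not pair the groups (correlation of same-numbered deviations -0.0199).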

Additional observations from a re-analysis of the deposited data

Results flagged for a closer look

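The fold change under MS7126 differed between Huh7 and HepG2 for CENPE (1.33, Huh7 minus HepG2) and ANLN (0.93), tested as a difference of log2 fold changes. Of 16334 genes compared, 433 had a higher value in Huh7 and 500 a lower one, so 2 of 38 members lie near that background. Huh7 shEZH2 and the HepG2 libraries labelled shEZH2 were compared by the same test. Of 11878 genes, 3600 had a higher value in Huh7 and 2520 a lower one. Among the 38 members, 24 differed. Higher in Huh7 were MAD2L1 (1.17), DLGAP5 (1.10), CENPA (1.07), CCNA2 (0.94), CCNB1 (0.85), ANLN (0.82), CCNB2 (0.80), PLK1 (0.79), NCAPH (0.72), KIF11 (0.63), TPX2 (0.61), AURKA (0.56), KIF23 (0.46), NDC80 (0.43), PRC1 (0.29), BIRC5 (0.25) and CDC20 (0.20). Lower in Huh7 were TOP2A (-1.45), CENPE (-1.44), SMC4 (-1.18), SPC24 (-1.06), INCENP (-0.56), CENPF (-0.55) and NCAPG (-0.38). EZH2 RNA was lower in the Huh7 libraries and higher in the HepG2 ones against their controls, so the shared label does not stand for a shared change in EZH2.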

How the results depend on the processing

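The deposited tables gave no values per library here, so leaving out a library was run for Huh7 shEZH2 alone: its lower members ranged from 5 to 10 and its higher ones from 1 to 1. There, DESeq2 and the authors' adjusted p each gave 5 lower and 1 higher, an adjusted p of 0.01 gave 1 higher, a 2-fold minimum 0 and 0, and centring on the median gene 4 higher. The replicate block gave 9 lower and 2 higher, with no call changed, and the numbers do not pair the samples. When a library was left out, CDK1 ranged from -0.07 to 0.08, turning to -0.07 and -0.02 in 2 of the fits, and AURKB from -0.02 to 0.08, turning to -0.02 in 2. Centring turned AURKB with #664 (0.00) and CDK1 (0.01) and AURKB (0.03) in the HepG2 libraries labelled shEZH2.

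A 2-fold minimum left 13 lower under MS7126 in HepG2, 1 with C24, 3 in Huh7, 0, 1 and 1 lower and 2, 0 and 0 higher with #664, #665 and #667, 4 and 4 in the libraries labelled shEZH2 and 0 with MS8815. With C24, 1 was lower at an adjusted p of 0.01 and 1 under either readjustment. With MS7126N1, 1 (BUB1B) was higher after a mean minimum of 10 or centring. With MS8815, 9 were lower at 0.01 and 9 when centred. At 0.01, members that differ numbered 5 (MS7126 and C24), 4 (MS7126 and MS7126N2), 1 (MS8815 and EPZ-6438), 3 (#664 and #665), 1 (#665 and #667) and 0 (MS7126 between lines). With the covariance of shared controls set as if the control group gave an equal part of each variance, they numbered 23, 27 and 25 for MS7126 against C24, MS7126N1 and MS7126N2, 6 for C24 and MS7126N1, 2 for the analogs, 10 and 11 for MS8815, and 13, 7 and 9 for #664 and #665, #664 and #667, and #665 and #667. With a mean minimum of 10, MS8815 and MS8815N differed in 2. The shares of all genes under these settings are not given. Of 189 counts under an alternative, 140 stayed within 1.5 times the reported one. The SE of the members, with a median of 0.244 under MS7126 in HepG2 and 0.0649 with #664, sets what could be detected.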
